A study of Bos taurus with 24 samples.

Results

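The 10 genes described here are PTGES, PTGS2, HAS2, PTX3, TNFAIP6, VCAN, EGFR, AREG, EREG and BTC, a set drawn from the prostaglandin pathway, the cumulus matrix and the EGF receptor with its ligands. They were found among the 27607 genes of the deposited bovine count table by matching symbols to Ensembl gene identifiers by genome position, and all 10 were found. The lowest overlap between an Ensembl span and its named RefSeq span, as a share of their union, was 0.9379 (EREG). Expression was measured by RNA-seq in 24 libraries of granulosa cells, the somatic cells that surround the oocyte in the ovarian follicle. There were 4 libraries of granulosa cells of secondary follicles (secondary granulosa, GC), which have no fluid-filled cavity. Antral follicles, which have such a cavity, gave 5 libraries in each of 4 groups: cumulus cells (CC), the granulosa cells next to the oocyte, and mural granulosa cells (MGC), which line the follicle wall, each from early antral and from late antral follicles. The study asked how the ability of granulosa cells to extend transzonal projections, thin processes that reach the oocyte, changes as the follicle grows. The labels name no treatment, genotype, breed or age. They also do not say whether libraries of a group came from separate animals, so p-values measure the spread between these libraries, which may be technical.

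In many mammals the preovulatory luteinising hormone surge makes mural granulosa cells release the EGF-like ligands amphiregulin (AREG), epiregulin (EREG) and betacellulin (BTC). These ligands act on the receptor EGFR of cumulus cells, which then switch on the hyaluronan synthase HAS2, the prostaglandin synthase PTGS2, and PTX3 and TNFAIP6, whose proteins cross-link the hyaluronan of the expanding cumulus matrix. VCAN encodes versican, a large proteoglycan that binds hyaluronan, and PTGES encodes the microsomal enzyme that turns the product of PTGS2 into prostaglandin E2.

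Levels are given in CPM, the reads of a gene divided by all counted reads of the library and multiplied by 1000000. Total counts ran from 8379801 to 31762400 per library. For a gene with no read in a group, a limit of 3 counts over the whole group is given. That limit lies between 0.0244 CPM (early cumulus) and 0.0402 CPM (secondary granulosa), and covers counting error alone, because reads were not marked by molecule. Counting also used no option for paired reads. If reads came in pairs, a single fragment could be counted more than once. The limit would then be too low, and fold bounds taken from it too high. Whether this was so was not tested. Values by library follow the library number, which orders nothing.

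Among late antral follicles, 1 library of each cell type stood apart from the other 4 of its group. Late mural library 3 had the lowest mean correlation with its own group of all 24 libraries (0.8456), and late cumulus library 3 the next lowest (0.9091). Late mural library 3 went against its label: the follicle-stimulating hormone receptor FSHR stood at 10.6 CPM there and at 302 to 381 CPM in the other 4. The matrix gene LUM, a stromal marker, was at 1621 CPM there and at most 19.2 CPM in the others. The summed level of 6 granulosa markers was 130 CPM there against 3082 to 5897 CPM, and that of 8 theca and stroma markers was 2109 CPM against 202 to 365 CPM. Within that list INSL3 went the other way, at 1.87 against 190 to 349 CPM. Without INSL3 the sum was 2107 against 11.6 to 28.5 CPM, most of it LUM. Late cumulus library 3 kept FSHR at 301 CPM and had a granulosa marker sum of 1782 CPM, against 8017 to 15756 CPM in the other 4. INHBA had the widest span in that sum, from 191 to 11334 CPM over late cumulus. Early mural sums were lower than 1782 CPM, at 690 to 1112.5 CPM. In late cumulus library 3 the theca and stroma sum was 146 CPM against 497 to 671 CPM, a gap made by INSL3 (26.9 against 382 to 597 CPM). Over the 7 markers other than INSL3, a split made after seeing the values, the sum was 119 CPM against 73.8 to 126 CPM, with PDGFRA higher (79.5 against 14.3 to 29.5 CPM). In the other 22 libraries the granulosa sum was at least 689.9 CPM. Stromal markers were not confined to late mural library 3. Without INSL3 the theca and stroma sum was 67.8 to 686 CPM in early cumulus, against 73.8 to 126 CPM in late cumulus. Early cumulus library 1 was highest, with LUM at 533 and DCN at 146 CPM. From early to late cumulus DCN fell by 6.02 on the log2 scale (edgeR's test, adjusted p = 0.0020), while INSL3, COL1A1 and PDGFRA rose. The part of stromal cells in such differences was not tested. The oocyte genes BMP15 and FIGLA and the globin HBB had no read in any library, and the oocyte marker sum was at most 2.1 CPM, the blood marker sum at most 9.79 CPM and the endothelial sum at most 25.6 CPM. Some results for the 10 genes that touch the 2 libraries are also given without them, as are list counts that change, a choice made after seeing the data.

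The plot of the level of each gene in every library shows 4 patterns that the text takes up in turn. VCAN and EGFR were highest in late cumulus, PTGES and BTC were lowest in late mural cells, and PTGS2 was lowest in late cumulus. HAS2, PTX3 and TNFAIP6 were low, apart from the 2 libraries just named. EREG was at most 0.801 CPM in any library, and AREG was close to or below the limit of detection.

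**Figure D1:**
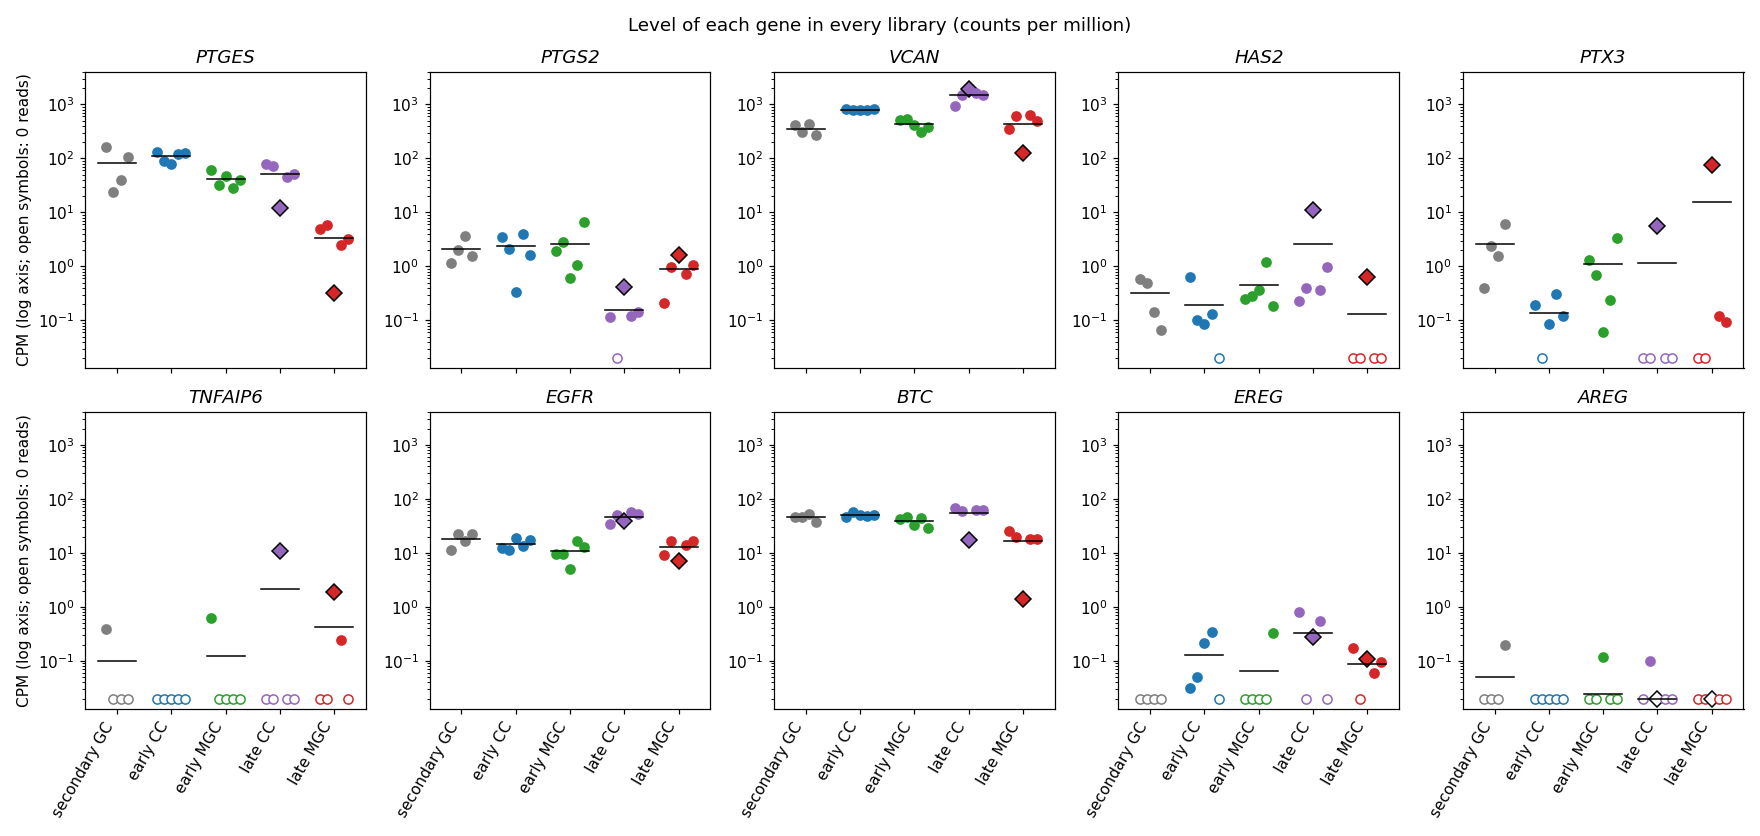
Level of each of the 10 genes in each of the 24 libraries, in CPM on a log axis, by group; bars mark group means, open symbols libraries with 0 reads, and diamonds late cumulus library 3 and late mural library 3. PTX3 reached 76.1 CPM in late mural library 3 and HAS2 11 CPM in late cumulus library 3, while VCAN stayed above 123 CPM in all 24.

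PTGES was expressed in every library and was lowest in mural cells of late antral follicles. The gene (ENSBTAG00000019453) lies on the minus strand of chromosome 11, at 100121985 to 100133453 of ARS-UCD1.2, with 886 bases of exon. In secondary granulosa its level was 161, 23.5, 39.1 and 104 CPM. In early cumulus it was 133, 88.0, 78.9, 123 and 126 CPM, and in early mural cells 59.9, 31.5, 46.7, 28.9 and 39.9 CPM. These 2 early groups did not overlap, with every cumulus library above every mural library. In late cumulus the values were 79.0, 71.3, 12.3, 45.1 and 50.3 CPM. In late mural cells they were 5.01, 5.80, 0.321, 2.46 and 3.27 CPM, below every library of the other 4 groups.

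The group means ± SD of PTGES were 82.0 ± 63.2 CPM (n = 4) in secondary granulosa, 109.7 ± 24.5 in early cumulus, 41.4 ± 12.5 in early mural, 51.6 ± 26.1 in late cumulus and 3.37 ± 2.16 in late mural cells (n = 5 each). Between early and late mural cells PTGES fell by 3.48 ± 0.59 (SE) on the log2 scale, an 11.1-fold change (edgeR quasi-likelihood test, adjusted p = 0.00028). Late cumulus cells were 12.9-fold above late mural cells (log2 difference 3.68 ± 0.59, adjusted p = 4.4e-05). In cumulus cells the change from early to late was -1.09 ± 0.53 and did not pass the test (adjusted p = 0.097). It passed by limma-voom (-1.27, adjusted p = 0.032), with the 2 groups compared alone (-1.13, adjusted p = 0.023) and without the 3 libraries of lowest correlation (-0.84, adjusted p = 0.028). The 2 stage changes were compared directly: the change in cumulus minus the change in mural cells was 2.39 ± 0.76 (adjusted p = 0.020). Without the 2 libraries that stood apart PTGES fell 9.05-fold in mural cells (-3.18 ± 0.44, adjusted p = 1.2e-05). Late cumulus was then 12.4-fold above late mural cells (3.63 ± 0.45, adjusted p = 1.3e-06). Ranked by mean level, neighbours among the 4 upper groups did not differ beyond their spread (adjusted p between 0.39 and 0.78). The difference of 1.29 ± 0.53 between early cumulus and early mural cells missed the threshold (adjusted p = 0.11), and passed it without the 2 libraries that stood apart (1.29 ± 0.36, adjusted p = 0.014). In bulk RNA, fewer cells that express a gene and less RNA of it per cell cannot be told apart, here or in the results that follow.

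PTGS2, the inducible cyclooxygenase, was at a few CPM in the early groups and almost absent from late cumulus. Its gene (ENSBTAG00000014127) lies on the minus strand of chromosome 16, at 67728006 to 67735629, with 3489 bases of exon. It stood at 1.13, 2.0, 3.68 and 1.52 CPM in secondary granulosa, and at 3.53, 2.14, 0.342, 4.05 and 1.65 CPM in early cumulus. Early mural cells gave 1.91, 2.87, 0.599, 1.07 and 6.71 CPM, and late mural cells 0.209, 0.967, 1.61, 0.721 and 1.04 CPM. In late cumulus there were 2, 0, 6, 2 and 2 reads, or 0.114, 0, 0.415, 0.121 and 0.141 CPM. All late cumulus libraries lay below all secondary granulosa libraries, while early and late cumulus overlapped through early cumulus library 3 and late cumulus library 3.

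Means of PTGS2 were 2.09 ± 1.12 CPM (secondary, n = 4), 2.34 ± 1.49 (early cumulus), 2.63 ± 2.44 (early mural), 0.158 ± 0.154 (late cumulus) and 0.909 ± 0.509 (late mural, n = 5 each). From early to late cumulus PTGS2 fell by 3.87 ± 0.79 on the log2 scale, a 14.7-fold change (adjusted p = 0.00032). Late cumulus also lay below late mural cells (-2.66 ± 0.78, adjusted p = 0.0085) and below secondary granulosa (-3.68 ± 0.81, adjusted p = 0.00073). All 3 differences were larger without the 2 libraries that stood apart (-4.64, -3.17 and -4.44). By limma-voom the difference between the late groups had an adjusted p of 0.053. From early to late mural cells the change of -1.4 ± 0.67 did not pass the test (adjusted p = 0.15). The stage changes of the 2 cell types differed by -2.47 ± 1.01, which did not pass (adjusted p = 0.063). Without the 2 libraries they differed by -2.97 ± 1.06, which passed (adjusted p = 0.029). PTGES and PTGS2, which act one after the other, thus had their lowest levels in different late groups: PTGES in mural cells and PTGS2 in cumulus cells.

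Most other measured genes of prostaglandin metabolism fell in late antral cumulus cells. Of a list of 20 such genes, 16 were found and 9 were expressed enough to test. From early to late cumulus 7 of the 9 fell and 0 rose, where 45.2% of all 14298 tested genes changed and 22.7% fell, and the list's median log2 change was -1.13 against 0.04 over all genes. With the 2 libraries left out the same 7 genes fell and no other changed. PTGDS, the lipocalin-type prostaglandin D synthase, fell from 1333 ± 498 to 128 ± 63.1 CPM (-3.38 ± 0.58, adjusted p = 7.4e-05). PTGES2, a membrane-associated prostaglandin E synthase, fell from 325 ± 87.4 to 122 ± 43.1 CPM (-1.39 ± 0.25, adjusted p = 9.5e-05). PLA2G4A, the cytosolic phospholipase that frees arachidonic acid, fell from 22.6 ± 5.57 to 9.93 ± 2.05 CPM (-1.17 ± 0.25, adjusted p = 0.00050). The reductases PTGR1 and PTGR2 and the thromboxane synthase gene TBXAS1 also fell, by 1.13 ± 0.28, 0.81 ± 0.24 and 2.29 ± 0.81 on the log2 scale.

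From early to late mural cells 3 of the 9 fell and 0 rose, where 19.1% of all tested genes changed and 9.3% fell. PTGDS moved most, from 607 ± 237 to 21.4 ± 16.2 CPM (-4.66 ± 0.61, adjusted p = 1.9e-05). The other 2 were TBXAS1 (-2.36 ± 0.76, adjusted p = 0.030) and PLA2G4A (-0.72 ± 0.25, adjusted p = 0.040). With the 2 left out, the 3 that fell were PTGDS, TBXAS1 and PTGES2. Across the series PTGDS ran from 1433 to 3314 CPM in secondary granulosa down to 3.43 to 46.4 CPM in late mural cells, with no overlap. PTGES3, the cytosolic prostaglandin E synthase that also serves as a chaperone partner, stood between 274 and 705 CPM in every library and changed in none of the 8 pairwise comparisons with all libraries. It was higher in late cumulus than in secondary granulosa once the 2 libraries were left out.

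Between the late cell types 2 of the 9 were higher in cumulus and 2 lower, where 39.7% of all tested genes differed. The higher were PTGDS (2.29 ± 0.55, adjusted p = 0.0023) and PTGS1, the constitutive cyclooxygenase (2.65 ± 0.680 against 0.681 ± 0.283 CPM, 1.78 ± 0.62, adjusted p = 0.025). The lower were PLA2G4A (-1.44 ± 0.25, adjusted p = 6.8e-05) and PTGR2 (-0.89 ± 0.24, adjusted p = 0.0042). Without the 2 libraries PTGS1 was not called here and TBXAS1 was also lower, so that 1 was higher and 3 lower. In early antral follicles PTGES2 was higher in cumulus (1.09 ± 0.25, adjusted p = 0.0057) and PLA2G4A lower (-0.99 ± 0.25, adjusted p = 0.0094), with 13.1% of all tested genes differing. Leaving out the 2 libraries gave 3 higher (PTGES2, PTGDS and CBR1) and 2 lower (TBXAS1 and PLA2G4A), where 21.4% of all genes differed. The prostaglandin E2 receptors PTGER2 and PTGER4 had no read in late cumulus and reached at most 2.09 CPM elsewhere, too low to test.

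VCAN was the gene of the set with the most reads, 324043 over all libraries, and was highest in late cumulus. The gene (ENSBTAG00000014906) lies on the plus strand of chromosome 7, at 83356440 to 83476139, with 11174 bases of exon. Secondary granulosa gave 421, 302, 425 and 268 CPM. Early cumulus gave 836, 784, 799, 783 and 809.7 CPM, a spread of 2.70% of the mean, and early mural cells 521, 547, 418, 306 and 377 CPM. Every early cumulus library lay above every library of secondary granulosa and of early mural cells. In late cumulus the values were 924, 1511, 1895, 1632 and 1495 CPM, all above early cumulus. Late mural cells gave 343, 612, 124, 631 and 488 CPM, with library 3, the one low in granulosa markers, the lowest of all 24.

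The means of VCAN were 354 ± 80.9 CPM (secondary, n = 4), 802 ± 21.6 (early cumulus), 434 ± 100.2 (early mural), 1491 ± 355 (late cumulus) and 439 ± 211 (late mural, n = 5 each). VCAN rose 1.87-fold from early to late cumulus (0.90 ± 0.29, adjusted p = 0.014). Late cumulus was 2.93-fold above late mural cells (1.55 ± 0.30, adjusted p = 0.00019) and 4.33-fold above secondary granulosa (2.11 ± 0.33, adjusted p = 1.7e-05). Early cumulus was 2.32-fold above secondary granulosa (1.21 ± 0.32, adjusted p = 0.041). This last call was lost when any 1 of the 9 libraries was left out (adjusted p between 0.053 and 0.13), but became firmer without the 2 libraries that stood apart (adjusted p = 0.00035). Early cumulus against early mural cells gave 0.78 ± 0.29, which missed the threshold (adjusted p = 0.075) although the groups did not overlap. It passed without the 2 libraries (0.78 ± 0.19, adjusted p = 0.0035). In mural cells the change with stage was 0.13 ± 0.29 (adjusted p = 0.79). Late mural cells against secondary granulosa gave 0.57 with all libraries, which did not pass. The difference passed without late mural library 3 (0.81, adjusted p = 0.0055) and without both libraries (0.81 ± 0.21, adjusted p = 0.0029). The stage changes in cumulus and mural cells differed by 0.77 ± 0.41, which did not pass the test (adjusted p = 0.16). Without both libraries VCAN rose by 0.76 ± 0.19 from early to late cumulus (adjusted p = 0.0020). Late cumulus was then 2.24-fold above late mural cells (1.16 ± 0.21, adjusted p = 6.2e-05).

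HAS2 was low in all groups, and its rise in late cumulus rested on 1 library. The gene (ENSBTAG00000019892) lies on the plus strand of chromosome 14, at 18093101 to 18125211, with 4840 bases of exon. Its read counts were 12, 5, 2 and 2 in secondary granulosa, 20, 2, 2, 3 and 0 in early cumulus, and 4, 4, 6, 10 and 4 in early mural cells. Late cumulus gave 4, 8, 159, 6 and 14 reads, or 0.229, 0.393, 11, 0.362 and 0.986 CPM. Late mural cells gave 12 reads in library 3 and none in the other 4. The 2 late libraries that stood apart thus held the highest HAS2 level of their groups.

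In all libraries HAS2 was higher in late than in early cumulus (2.60 ± 4.71 against 0.189 ± 0.251 CPM, 3.74 ± 1.25, adjusted p = 0.017) and than in late mural cells (4.27 ± 1.32, adjusted p = 0.012). Without late cumulus library 3 these values were 1.25 (adjusted p = 0.40) and 1.78 (adjusted p = 0.25). Without both libraries the late cumulus mean was 0.493 ± 0.337 CPM (n = 4), and the difference from early cumulus was 1.24 ± 0.99 (adjusted p = 0.31). The 4 remaining late mural libraries then had no read, a limit of 0.0361 CPM over the 4. By this limit, with its caveats, they lay at least 13.6-fold below late cumulus and at least 12.5-fold below early mural cells. These last 2 differences passed the test (adjusted p = 0.0044 and 0.0071). The stage changes of the 2 cell types differed by 5.53 ± 1.80 in all libraries (adjusted p = 0.021). This call was lost without late cumulus library 3 (adjusted p = 0.16) or without early mural library 4 (adjusted p = 0.051). Without both libraries that stood apart it was kept, at 7.46 ± 1.94 (adjusted p = 0.0042), with no read left in late mural cells.

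PTX3, the pentraxin of the cumulus matrix, had its highest levels in the 2 libraries that stood apart. By edgeR, it was lower in late than in early antral groups only with these libraries left out. The gene (ENSBTAG00000009012) lies on the minus strand of chromosome 1, at 110158198 to 110164262, with 1842 bases of exon. It lies within VEPH1 (ENSBTAG00000024643) on the opposite strand, and 626 bases of exon are shared, so reads there cannot be told apart without strand. Its levels were 0.395, 2.40, 1.56 and 6.0 CPM in secondary granulosa, 0.189, 0, 0.0856, 0.302 and 0.120 CPM in early cumulus, and 1.30, 0.699, 0.0599, 0.239 and 3.31 CPM in early mural cells. Late cumulus library 3 had 82 reads (5.68 CPM) and the other 4 late cumulus libraries none. Late mural library 3 had 1421 reads (76.1 CPM) and the other 4 had 0, 0, 2 and 2 reads. All secondary granulosa libraries lay above all early cumulus libraries.

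With all libraries none of the 8 pairwise comparisons of PTX3 passed edgeR's test (adjusted p between 0.12 and 0.75). By limma-voom late cumulus lay below secondary granulosa (-4.60, adjusted p = 0.043). By edgeR the log2 changes with stage were 3.75 ± 1.85 in mural and 2.98 ± 2.04 in cumulus cells. Both signs turned when the 2 libraries were left out. PTX3 then fell from early to late mural cells by 4.13 ± 1.17 (adjusted p = 0.011), from 1.12 CPM to a mean of 0.0538 ± 0.0629 CPM (n = 4). In late cumulus it then had no read, a limit of 0.0437 CPM over 4 libraries. By this limit, with its caveats, late cumulus lay at least 3.18-fold below early cumulus, which held 18 reads (adjusted p = 0.036). It lay at least 59.2-fold below secondary granulosa (adjusted p = 0.00012). Early cumulus then also lay below secondary granulosa (-4.09 ± 0.98, adjusted p = 0.010) and below early mural cells (-2.95 ± 0.93, adjusted p = 0.025). Early mural cells against secondary granulosa then gave -1.13 ± 0.87, which did not pass (adjusted p = 0.40). The part of the stromal signal of late mural library 3 in its PTX3 level was not tested. In late cumulus library 3, of the 8 theca and stroma markers, PDGFRA (79.5 CPM) and COL3A1 (0.138 CPM) lay above the other 4 libraries, INSL3, LUM and COL1A1 below them, DCN and COL1A2 within their range, and CYP17A1 had no read. Their part in its PTX3 level was not tested either. The leukocyte gene PTPRC moved the same way as PTX3 does without the 2 libraries. With all libraries it fell in late against early mural cells (-4.30 ± 1.12, adjusted p = 0.010) and in late against early cumulus (-4.52 ± 1.64, adjusted p = 0.029), and was lower in early cumulus than in early mural cells (-3.84 ± 1.06, adjusted p = 0.021). LYZ, the lysozyme gene, fell in mural cells (-3.73 ± 1.06, adjusted p = 0.015). Its change with stage in cumulus (-2.68 ± 1.14, adjusted p = 0.057) and its difference between the early cell types (-2.25 ± 0.95, adjusted p = 0.12) did not pass. Late cumulus lay below secondary granulosa for PTPRC (-7.67 ± 1.59, adjusted p = 0.00057) and LYZ (-4.37 ± 1.18, adjusted p = 0.0041). Other blood cell markers were mixed. CD68 passed in none of these comparisons (adjusted p = 0.78 and 0.64 with stage in mural and cumulus cells, 0.61 between the early cell types). CD3E went the other way between the early cell types, with 0.395 CPM in early cumulus and no read in early mural cells. In late cumulus it was lower, at 0.0458 CPM. CSF1R was highest in late cumulus, at 0.243 CPM. The sum of the 6 blood cell markers, of which all were found, was 1.48 to 7.08 CPM in secondary granulosa, 1.17 to 2.52 in early cumulus, 1.86 to 9.79 in early mural, 0.493 to 1.47 in late cumulus and 0.601 to 1.71 CPM in late mural cells. HBB was at 0 throughout, and PTPRC in late cumulus. The part of blood cells in the PTX3 levels was not tested.

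TNFAIP6, whose product moves heavy chains of the serum inhibitor onto hyaluronan, had reads in 5 of the 24 libraries and was too low to test. The gene (ENSBTAG00000007239) lies on the minus strand of chromosome 2, at 44747145 to 44764214, with 1600 bases of exon. Late cumulus library 3 held 157 of the 214 reads (10.9 CPM), and late mural library 3 held 35 (1.87 CPM). The others were 10 reads in early mural library 1, 8 in secondary granulosa library 1 and 4 in late mural library 4. Early cumulus had none in 5 libraries, a limit of 0.0244 CPM. Late cumulus library 3 was thus highest of its group for HAS2, PTX3, TNFAIP6, VCAN and PTGS2, the last at 0.415 CPM, and lowest for PTGES and BTC.

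Other genes of hyaluronan metabolism moved in both directions. Of 22 listed, 21 were found and 10 could be tested, and in late against early cumulus 2 rose and 3 fell, where 45.2% of all tested genes changed. HYAL1, a hyaluronidase, rose from 18.9 ± 1.91 to 58.9 ± 17.2 CPM (1.63 ± 0.22, adjusted p = 3.1e-06), and all late cumulus libraries (36.7 to 73.6 CPM) lay above all others of the series. ADAMTS9, a protease that cuts versican, rose from 8.54 ± 2.34 to 13.8 ± 2.69 CPM (0.72 ± 0.25, adjusted p = 0.021). HAPLN3, a link protein that joins proteoglycans to hyaluronan, fell from 156 ± 20.6 to 44.5 ± 30.9 CPM (-1.78 ± 0.33, adjusted p = 0.00011). ADAMTS1, another versican-cutting protease, fell from 10.03 ± 2.33 to 1.34 ± 0.712 CPM (-2.87 ± 0.68, adjusted p = 0.0016), and the hyaluronan receptor HMMR, also tied to the mitotic spindle, fell by 1.47 ± 0.36 on the log2 scale (adjusted p = 0.0018). HYAL2 also fell when the 2 libraries were left out, for 2 that rose and 4 that fell.

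In late against early mural cells, where 19.1% of all tested genes changed, 0 of the 10 rose and 2 fell, HAPLN3 (-1.09 ± 0.32, adjusted p = 0.018) and ADAMTS9 (-0.96 ± 0.25, adjusted p = 0.0096). With the 2 left out, 1 rose (HMMR) and 4 fell (HAPLN3, ITIH5, ADAMTS1 and ADAMTS9). Between the late cell types, where 39.7% of all tested genes differed, 3 were higher in cumulus (HYAL1, ADAMTS9 and the synthase HAS3) and 2 lower (HMMR and ADAMTS1), with HAPLN3 also lower when the 2 libraries were left out. HAS3 stood at 2.11 ± 1.37 CPM in late cumulus and 0.731 ± 0.538 CPM in late mural cells (1.30 ± 0.51, adjusted p = 0.046). ADAMTS1 in late mural cells ran from 1.44 to 5.50 CPM in 4 libraries and stood at 56.1 CPM in library 3. The hyaluronan receptor CD44 had no read except in late mural library 3 (3.70 CPM), and HAS1 did not exceed 0.121 CPM.

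EGFR was expressed in every library and was highest in late cumulus. The gene (ENSBTAG00000011628) lies on the minus strand of chromosome 22, at 905960 to 1121554, with 4347 bases of exon. It stood at 11.4, 22.9, 16.9 and 22.6 CPM in secondary granulosa, 12.2, 11.5, 19.2, 13.4 and 17.1 CPM in early cumulus, and 9.51, 9.58, 4.97, 16.9 and 12.9 CPM in early mural cells. Late cumulus gave 34.8, 50.3, 39.1, 57.3 and 53.6 CPM, above every other library of the series. Late mural cells gave 9.04, 16.9, 7.02, 14.2 and 17 CPM, within the range of the early groups.

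EGFR means were 18.4 ± 5.43 CPM (secondary, n = 4), 14.7 ± 3.34 (early cumulus), 10.8 ± 4.45 (early mural), 47.0 ± 9.63 (late cumulus) and 12.8 ± 4.57 (late mural, n = 5 each). EGFR rose 3.19-fold from early to late cumulus (1.68 ± 0.30, adjusted p = 6.9e-05). Late cumulus was 3.15-fold above late mural cells (1.66 ± 0.30, adjusted p = 9.1e-05) and 2.59-fold above secondary granulosa (1.38 ± 0.32, adjusted p = 0.0011). In mural cells the change was 0.34 ± 0.29 (adjusted p = 0.45), and the stage change in cumulus exceeded it by 1.33 ± 0.41 (adjusted p = 0.016). The other 4 groups did not differ between neighbours in the order of their means (adjusted p between 0.45 and 0.97). Without the 2 libraries the rise in cumulus was 1.71 ± 0.27. Late cumulus then lay 1.52 ± 0.29 above late mural cells (adjusted p = 0.00015), and the stage changes differed by 1.19 ± 0.39 (adjusted p = 0.018).

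BTC was the 1 ligand of the set with reads in every library, and its mean was lowest in late mural cells. The gene (ENSBTAG00000004237) lies on the minus strand of chromosome 6, at 89681975 to 89731873, with 3360 bases of exon. It gave 47.0, 45.6, 53.7 and 38.2 CPM in secondary granulosa, 45.7, 58.1, 51.1, 47.9 and 51.2 CPM in early cumulus, and 43.2, 47.3, 33.6, 44.2 and 29.4 CPM in early mural cells. Late cumulus gave 68.5, 60.7, 17.2, 61.3 and 61.6 CPM, with library 3 far below the rest. Late mural cells gave 25.8, 19.4, 1.39, 17.9 and 17.9 CPM, again with library 3 lowest, and all below every early library.

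BTC means were 46.1 ± 6.35 CPM (secondary, n = 4), 50.8 ± 4.67 (early cumulus), 39.5 ± 7.63 (early mural), 53.9 ± 20.7 (late cumulus) and 16.5 ± 9.04 (late mural, n = 5 each). Late cumulus was 2.72-fold above late mural cells (1.45 ± 0.43, adjusted p = 0.011). Late mural cells lay below secondary granulosa (-1.20 ± 0.45, adjusted p = 0.046), a call lost when any 1 of 7 of the 9 libraries was left out (adjusted p up to 0.10). The fall from early to late mural cells was 1.13 ± 0.43 on the log2 scale and missed the threshold (adjusted p = 0.069), although the groups did not overlap. Without the 2 libraries all 3 passed, at 1.36 ± 0.20, -0.90 ± 0.20 and -0.83 ± 0.19 (adjusted p = 4.3e-06, 0.00083 and 0.0018), and the stage changes of the 2 cell types then differed by 1.13 ± 0.26 (adjusted p = 0.0015). In cumulus cells BTC changed with stage by 0.08 ± 0.42 (adjusted p = 0.89). Late cumulus against secondary granulosa gave 0.25 ± 0.45 (adjusted p = 0.68), and 0.47 ± 0.20 without the 2 libraries (adjusted p = 0.0499).

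EREG and AREG, the other 2 ligands of the set, lie on the same chromosome as BTC and were too low to test. EREG (ENSBTAG00000010273, chromosome 6, plus strand, 89306902 to 89325899, 2193 bases of exon) had 59 reads in 12 of the 24 libraries. Its counts were 1, 1, 5, 8 and 0 in early cumulus, 14, 0, 4, 9 and 0 in late cumulus, and 5, 0, 2, 1 and 2 in late mural cells. Early mural library 5 had 7 reads and its group no other, and secondary granulosa had none (limit 0.0402 CPM). The highest level was 0.801 CPM, in late cumulus library 1. AREG (ENSBTAG00000018134, chromosome 6, plus strand, 89379645 to 89391792, 1381 bases of exon) had 10 reads in all, of which 6 were in secondary granulosa library 4, 2 in early mural library 3 and 2 in late cumulus library 2. Early cumulus and late mural cells had no AREG read, limits of 0.0244 and 0.0295 CPM.

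Around EGFR and BTC, genes of receptor signalling and ligand release moved in both directions. Of 22 listed, 19 were found and 15 could be tested. In late against early cumulus 4 rose and 2 fell, or 40% of those tested, no more than the 45.2% of all tested genes that changed. ERRFI1, a feedback inhibitor of EGFR, rose from 16.5 ± 3.17 to 144 ± 62.3 CPM (3.12 ± 0.54, adjusted p = 8.4e-05). ERBB3, a receptor of the same family, rose from 0.936 ± 0.793 to 7.82 ± 1.98 CPM (3.03 ± 0.74, adjusted p = 0.0016), and its 5 late cumulus values (6.09 to 10.6 CPM) lay above all others of the series. ADAM17, the protease that sheds EGF-like ligands, rose from 9.94 ± 1.07 to 22.7 ± 5.42 CPM (1.18 ± 0.22, adjusted p = 9.9e-05), and the related ADAM10 rose 0.71 ± 0.14 (adjusted p = 0.00025). ERBB2 fell by 1.74 ± 0.39 (adjusted p = 0.00084) and the ligand gene NRG4 by 1.75 ± 0.53 (adjusted p = 0.0096), both on the log2 scale. With the 2 libraries left out 5 rose and 3 fell, as SPRY1 also rose and LRIG1 also fell.

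From early to late mural cells 2 rose and 2 fell, with 19.1% of all tested genes changed. The ligand gene NRG2 fell from 1.07 ± 0.552 to 0.0190 ± 0.0424 CPM (-5.31 ± 0.75, adjusted p = 2.1e-05), and NRG4 fell by 1.54 ± 0.53. ERRFI1 and RHBDF2, an inactive rhomboid that carries ADAM17 to the surface, rose (1.99 ± 0.52 and 1.87 ± 0.66). ERRFI1 stood at 157 CPM in late mural library 3 and at 13.5 to 25.6 CPM in the other 4, and RHBDF2 at 8.73 against 1.14 to 1.80 CPM. When the 2 were left out, ERRFI1 was the 1 gene that rose, and HBEGF, NRG2, SPRY1 and DUSP6 fell. Between the late cell types, where 39.7% of all tested genes differed, 5 were higher in cumulus (NRG2, ERBB3, SPRY1, RHBDF1 and ERRFI1) and ERBB2 was lower, and with the 2 libraries left out DUSP6 was also higher and LRIG1 also lower. DUSP6, a phosphatase that acts on ERK and is induced by it, stood at 203 CPM in late cumulus library 3 against 26.1 to 108 CPM in the other 4, and at 196 CPM in late mural library 3 against 2.70 to 9.91 CPM. TGFA, EPGN and NRG1, ligand genes of the list, had means over all libraries of at most 0.125 CPM.

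Receptors and factors upstream of the cumulus response formed a further list of 15, of which 14 were found and 10 tested. In late against early cumulus 3 rose and 1 fell, where 45.2% of all tested genes changed, and in mural cells 2 rose and 0 fell, where 19.1% did. NR5A2, the nuclear receptor LRH-1, rose in both, from 213 ± 56.6 to 920.4 ± 253 CPM in cumulus (2.1 ± 0.29, adjusted p = 3.8e-06) and from 162 ± 22.2 to 442 ± 143 CPM in mural cells (1.54 ± 0.28, adjusted p = 0.00043). The progesterone receptor gene PGR rose in both (0.82 ± 0.28 and 1.22 ± 0.29, adjusted p = 0.021 and 0.0045) but stayed at or below 20.2 CPM. FSHR changed in neither, with 302 to 381 CPM in 4 of 5 late mural libraries. LHCGR, the luteinising hormone receptor, reached at most 0.415 CPM in any library and was too low to test. Without the 2 libraries 3 rose and 1 fell in cumulus, and 4 rose in mural cells (FSHR, PGR, NR5A2 and SMAD2).

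**Figure D2:**
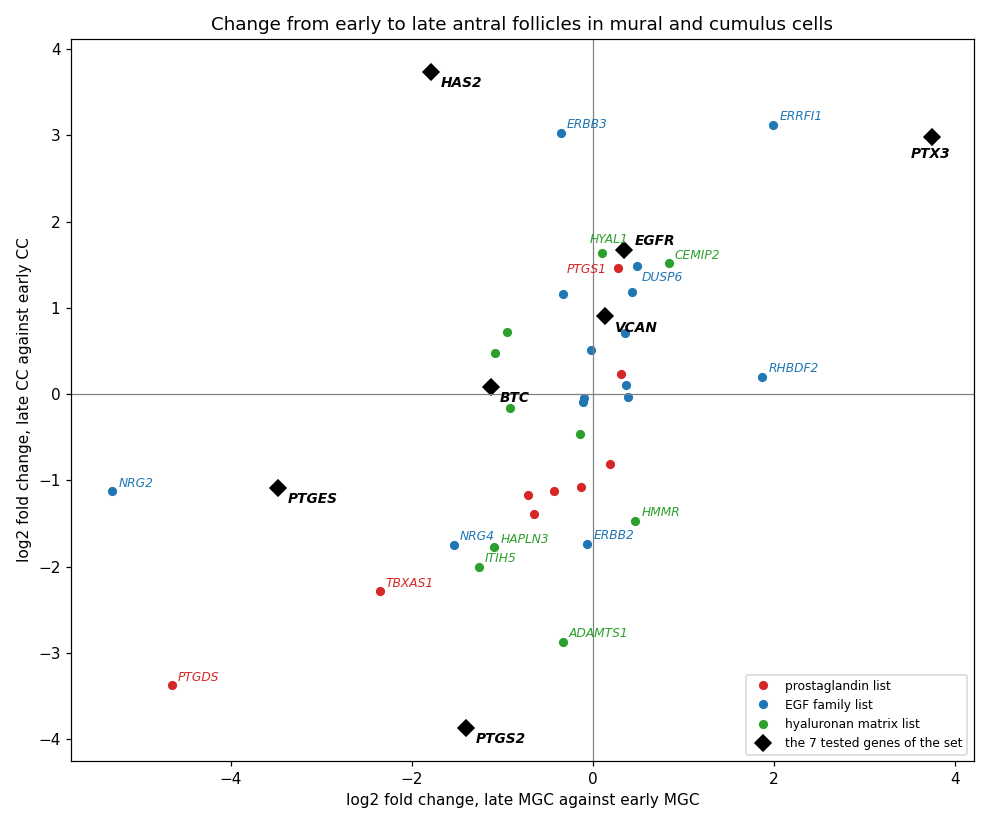
Log2 fold change from early to late antral follicles in mural cells (horizontal axis) and cumulus cells (vertical axis) for the 7 tested genes of the set (diamonds) and the tested genes of 3 related lists (points), with all 24 libraries in the fit. EGFR (0.34 and 1.68) moved in cumulus, PTGES (-3.48 and -1.09) mainly in mural cells, and the positions of HAS2 and PTX3 rest on the 2 libraries that stood apart.

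Of the 10 genes, 7 passed the filter on low counts and were tested: PTGES, PTGS2, HAS2, PTX3, VCAN, EGFR and BTC. In late against early cumulus 4 of 7 passed, where 45.2% of all tested genes did: VCAN, EGFR and HAS2 higher and PTGS2 lower. In late against early mural cells 1 of 7 passed (PTGES, lower), where 19.1% did. In late cumulus against late mural cells 6 of 7 passed, where 39.7% did, with 5 higher and PTGS2 lower, and PTX3 did not pass. The set's median absolute log2 difference there was 2.66, against 0.70 over all tested genes. For the difference between the stage changes 3 of 7 passed (PTGES, HAS2 and EGFR), where 31.4% did. Without the 2 libraries the counts were 4, 4, 6 and 5 of 7, with 49, 27.1, 41 and 36.5% of 14159 tested genes called.

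Comparisons with secondary granulosa gave fewer calls at the early stage. In early mural cells against secondary granulosa 0 of 7 passed edgeR's test, where 9.1% of all tested genes did, with 0 at an unadjusted p under 0.05 and 0 by DESeq2 or limma-voom. In early cumulus against secondary granulosa 1 of 7 passed (VCAN), where 1.99% did. Between the early cell types 0 of 7 passed, where 13.1% did, with 2 at an unadjusted p under 0.05 (PTGES and VCAN) and 0 by DESeq2 or limma-voom. In late mural cells against secondary granulosa 2 of 7 passed (PTGES and BTC, lower), where 31.8% did. In late cumulus against secondary granulosa 3 of 7 passed (VCAN and EGFR higher, PTGS2 lower), where 46% did. A difference among any of the 5 groups passed for 7 of 7, where 65.1% of all tested genes passed. For PTGS2, HAS2, PTX3, VCAN and BTC, the neighbours in the order of group means that differed beyond their spread were late mural and late cumulus for PTGS2, and late and early cumulus for VCAN. All other neighbours of these 5 genes did not (adjusted p between 0.069 and 0.997). Comparisons that name the same group share its libraries and are not independent.

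**Figure D3:**
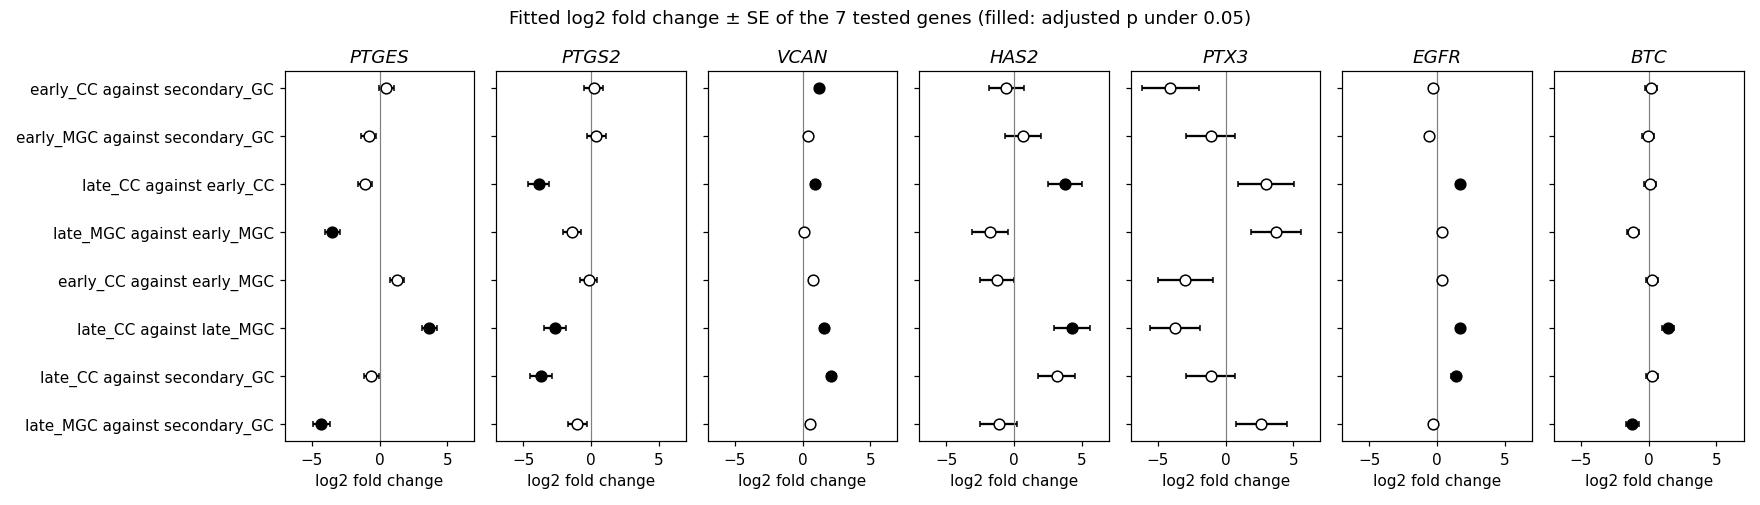
Fitted log2 fold change with its SE for the 7 tested genes (panels) in the 8 pairwise comparisons, first group against second, all 24 libraries in 1 fit; filled points have an adjusted p under 0.05. PTGES is farthest from 0 in late mural against secondary granulosa cells (-4.29), VCAN and EGFR in comparisons with late cumulus, and PTX3 has no filled point.

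The lists gave the following counts in the comparisons with secondary granulosa. In early cumulus, where 1.99% of all tested genes differed, 0 of 9 prostaglandin, 0 of 15 EGF family and 0 of 10 hyaluronan genes passed edgeR's test, with 3, 4 and 2 at an unadjusted p under 0.05, 0, 2 and 1 by DESeq2 and 1, 0 and 1 by limma-voom. NR5A2 rose there (1.4 ± 0.30, adjusted p = 0.012). In early mural cells, where 9.1% of all tested genes differed, PLA2G4A rose and PTGDS fell among the prostaglandin genes (1.15 ± 0.27 and -1.81 ± 0.56). Among the EGF family genes ADAM10 rose there and RHBDF1, NRG2 and ERRFI1 fell, and among the hyaluronan genes HYAL2 fell. Late cumulus had 0 prostaglandin genes higher and 4 lower, 4 EGF family genes higher and 4 lower, and 2 hyaluronan genes higher and 5 lower, where 46% of all tested genes differed. Late mural cells had 0 and 3, 2 and 3, and 1 and 4, where 31.8% differed. With the 2 libraries left out these counts were 1 and 5, 5 and 4, and 2 and 5 in late cumulus (49.7% of all genes), and 1 and 4, 2 and 6, and 2 and 5 in late mural cells (38.6%). They were 1 and 1, 0 and 2, and 0 and 2 in early cumulus (8.3%), and 1 and 1, 1 and 3, and 1 and 2 in early mural cells (16.4%). HBEGF, the heparin-binding ligand of EGFR, was lower in late cumulus than in secondary granulosa (0.682 ± 0.197 against 6.05 ± 5.70 CPM, -3.10 ± 1.02, adjusted p = 0.016).

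To compare levels between genes, reads were also divided by exon length, as reads per kilobase of exon and 1000000 counted reads (RPKM). Averaged over all libraries, VCAN and PTGES then stood at nearly the same level (64.3 and 63.9 RPKM), although their mean levels were 719 and 56.6 CPM. BTC followed at 12.3 RPKM and EGFR at 4.79 RPKM. PTX3 averaged 2.23, PTGS2 0.460, TNFAIP6 0.364 and HAS2 0.156 RPKM, with EREG at 0.0575 and AREG at 0.0126 RPKM. The means of PTX3, TNFAIP6 and HAS2 rest on the 2 libraries that stood apart. Over the other 22 they were 0.416, 0.0356 and 0.0609 RPKM, with PTGS2 at 0.476 and EREG at 0.0547 RPKM, so that PTGS2 then exceeded PTX3, and HAS2 and EREG exceeded TNFAIP6. Per length, the ligand BTC thus exceeded its receptor EGFR on average in each of the 5 groups, with 16.03 against 10.8 RPKM in late cumulus and 4.91 against 2.95 RPKM in late mural cells. PTGES exceeded VCAN in secondary granulosa (92.5 against 31.7 RPKM), in early cumulus (124 against 71.8 RPKM) and in early mural cells (46.7 against 38.8 RPKM). In both late groups the order was the other way, with 58.2 against 133 RPKM in late cumulus and 3.81 against 39.3 RPKM in late mural cells.

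**Figure D4:**
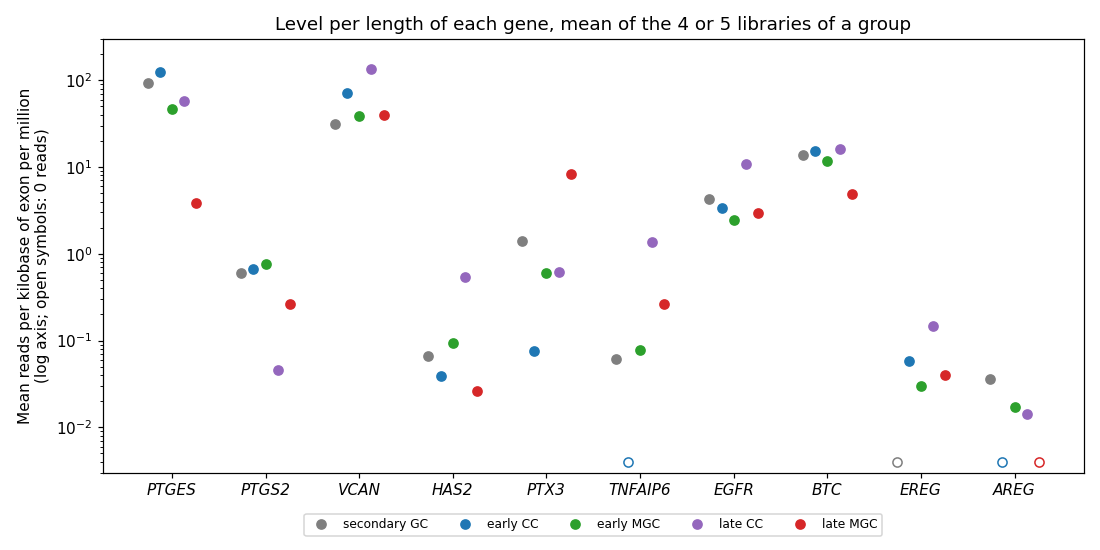
Mean level per length of each of the 10 genes in each of the 5 groups, in RPKM on a log axis, with open symbols where a group had 0 reads. VCAN and PTGES lead with means over all libraries of 64.3 and 63.9, and AREG is lowest with 0.0126.

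Genes with the most similar pattern were searched over the 24 libraries, among 10805 named genes that averaged 1 CPM or more, by Pearson's r of log2(CPM + 0.5). The r values carry no test and share library depth and the 2 libraries that stood apart. PTGES was most like TRIM65 (0.928), FGF12 (0.926) and STARD10 (0.924), and its r with BTC was 0.838. BTC was most like CA9 (0.933), SLC27A1 (0.930) and TCEA3 (0.928). VCAN was most like NPNT (0.935), RASL11B (0.919) and GREB1 (0.906), and EGFR most like SLC9A8 (0.919), STIM1 (0.914) and ANAPC5 (0.901). For PTGS2 they were SHISA2 (0.837), GSN (0.815) and CCDC113 (0.798), and for PTX3 SWAP70 (0.917), RND3 (0.916) and GLRX (0.911). PTGS2 and PTGES had an r of 0.136, and EGFR and VCAN of 0.683.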

How the data were processed

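RNA-seq of 24 bovine granulosa cell libraries was used. Per the labels' protocols, RNA was converted with the SMART-Seq v4 low-input kit and libraries were made with Nextera XT. The deposited values are counts of reads per gene, made by the authors with featureCounts 2.0.0 on exons of an Ensembl annotation of ARS-UCD1.2 and, per the file headers, with none of the options for stranded, paired or multiply aligned reads. The submitters' processing notes also name fastp 0.20.0, HISAT2 2.1.0, SAMtools 1.10 and bosTau9. The deposited summed exon length was used for RPKM only. Counting ignored strand, so overlapping genes cannot be separated. One further column of undetermined reads (1 in all) was not used.

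Symbols were assigned by position: an Ensembl span took the symbol of a RefSeq span of the next assembly, ARS-UCD2.0, where each was the best match of the other and they shared 0.5 or more of their joint length. This named 10805 (88.4%) of the 12219 genes that averaged 1 CPM or more. After a shift of 1000000 bases 1004 would still have, so a single name can be wrong. Library numbers of secondary granulosa and late mural cells follow column order only. No 2 libraries of a group were copies (chi-square divided by its degrees of freedom was 17.4 or more in all 46 pairs).

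Counts were tested with edgeR 4.0.16 (quasi-likelihood, TMM, filterByExpr, robust) in R 4.3.3, all 24 libraries in 1 fit by group, with Benjamini-Hochberg adjustment over 14298 tested genes and a threshold of 0.05. SE is the log2 fold change divided by the root of the F statistic. Variation between libraries of a group (edgeR's common BCV) was 42.4%. The scripts were tested on simulated data. Alternatives were DESeq2 1.42.0, limma-voom (limma 3.58.1), RLE scaling, no filter, each comparison alone, a replicate block and left-out libraries. All 10 genes are named, and of the related lists at most 6 called genes per comparison are given with values, lowest adjusted p first. A few untested or untabulated genes (PTGER2, PTGER4, CD44, HAS1, LHCGR, TGFA, EPGN, NRG1, PTGES3, DUSP6, FSHR) were named after their values were seen. The 10 genes and the lists were chosen with earlier results of these data known.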

Additional observations from a re-analysis of the deposited data

Results flagged for a closer look

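Within groups of 4 or 5 libraries, 1 library lay far from the others in 15 of the 46 gene and group combinations with any spread. How many chance would give at such low read counts was not tested, so the 15 cannot be read as an excess. In 9 combinations a single library held all reads, which flags any gene close to its detection limit.

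Late cumulus library 3 was far above its group for HAS2 (11 CPM), TNFAIP6 (10.87 CPM) and PTX3 (5.675 CPM), and far below it for BTC (17.23 CPM). Late mural library 3 was far above its group for PTX3 (76.11 CPM), TNFAIP6 (1.875 CPM) and HAS2 (0.6428 CPM). Granulosa marker sums were the lowest of their groups in both, as given with the libraries, and their part in these levels was not tested.

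The remaining far libraries rest on 20 or fewer reads each. They were HAS2 in early cumulus library 1 (0.6297 CPM) and early mural library 4 (1.193 CPM), TNFAIP6 in secondary granulosa library 1 (0.3948 CPM) and early mural library 1 (0.6173 CPM), EREG in early mural library 5 (0.3263 CPM), and AREG in secondary granulosa library 4 (0.1989 CPM), early mural library 3 (0.1198 CPM) and late cumulus library 2 (0.09826 CPM).

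The change from early to late follicles differed between cumulus and mural cells for PTGES, by 2.391 on the log2 scale, for HAS2, by 5.528, and for EGFR, by 1.334, each by edgeR's interaction test. The calls for PTGES and EGFR were kept with any 1 of the 20 antral libraries left out (highest adjusted p 0.036 and 0.045), and the call for HAS2 was lost without late cumulus library 3 or early mural library 4. With late cumulus library 3 and late mural library 3 both left out, the HAS2 call was kept (7.458, adjusted p = 0.0042).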

How the results depend on the processing

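Depth limits HAS2, PTX3, TNFAIP6, EREG and AREG, whose groups hold few reads. Of the 20 calls of single genes in pairwise comparisons and in the difference of stage changes, 20 were kept by DESeq2 and 19 each by limma-voom, RLE scaling and the fit without a filter. No call changed direction under these alternatives or when libraries were left out. Calls were also gained. DESeq2 called HAS2 in late cumulus against secondary granulosa (3.10, adjusted p = 0.032) and PTGS2 for the difference of stage changes (-2.48, adjusted p = 0.040). Calls gained by limma-voom included PTX3 in late cumulus against secondary granulosa (-4.60, adjusted p = 0.043) and PTGES in late against early cumulus. RLE scaling left VCAN at 1.15 (adjusted p = 0.0502) in early cumulus against secondary granulosa, so 0 of the 10 genes were called there, and without a filter 1 was called in late mural against secondary granulosa. In early cumulus against secondary granulosa 728 genes were called by DESeq2 and 603 by limma-voom (285 in the main fit), and both called 2 of the 10 genes in late against early mural cells (PTGES and BTC). With each pair of groups compared alone, 964 genes were called in early cumulus and 2812 in late mural cells against secondary granulosa, 1612 in late against early mural cells and 3035 between the early cell types. Of the 10 genes, 2 were then called between the early cell types (PTGES and VCAN), 3 between the late cell types, where PTGS2 and HAS2 failed the filter on low counts and BTC missed the threshold (adjusted p = 0.078), and 1 in late mural cells against secondary granulosa.

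Without late mural library 3 and late cumulus library 3, a choice made after seeing the data, 2320 genes were called in early mural and 1175 in early cumulus against secondary granulosa, and 3034 between the early cell types. Of the 10 genes 7 were then tested. Against secondary granulosa 2 were called in early cumulus (8.3% of all tested genes), 5 in late mural (38.6%) and 5 in late cumulus (49.7%). There were 4 calls in late against early mural cells (27.1%), 3 between the early cell types (21.4%) and 5 for the difference of stage changes (36.5%). Without the 3 libraries of lowest correlation, secondary granulosa library 2 being the other, the first 3 counts were 2015, 735 and 3323, and 4123 genes were called in late against early mural cells. In these comparisons the 10 genes then gave 1 call in early mural and 2 in early cumulus against secondary granulosa, 3 between the early cell types and 4 in late against early mural cells.

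PTX3 turned its sign in late mural against early mural cells, late against early cumulus and late mural against secondary granulosa. Its values there were -4.13, -4.49 and -5.26 without the 2 libraries, -4.13, -4.52 and -5.29 without the 3, and -1.50, -0.70 and -2.79 by limma-voom, which also gave 0.80 for the difference of stage changes. With 1 library left out at a time, PTX3 ran from -4.13 to 4.61, from -4.50 to 3.41 and from -5.26 to 3.49 in these comparisons, from -11.22 to 4.19 between the late cell types and from -8.24 to 7.14 for the difference of stage changes. The cause was not tested, beyond the levels of the 2 libraries given above.

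Leaving out 1 library at a time gave 516 to 1524 genes called in early mural, 150 to 358 in early cumulus, 3742 to 5040 in late mural and 5472 to 6581 in late cumulus against secondary granulosa. It gave 2093 to 3396 in late against early mural, 5727 to 6496 in late against early cumulus, 1222 to 1761 between the early and 4857 to 5891 between the late cell types. For the difference of stage changes it gave 3826 to 5138, and for any difference 8655 to 9691. The lowest count for early mural cells was without secondary granulosa library 4, and that for early cumulus without secondary granulosa library 2. Of the 10 genes, 0 were then called in early cumulus, 1 to 5 in late mural and 3 to 4 in late cumulus against secondary granulosa, 1 to 3 in late against early mural, 3 to 4 in late against early cumulus, 2 to 5 for the difference of stage changes and 5 to 7 for any difference.

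Libraries that share a number were not treated as paired: over 15 such pairs correlations of their deviations ran from -0.147 to 0.242, and 4 correlated best with their own number. These were early cumulus with early mural cells for numbers 1 and 2 (0.242 and 0.182). The others were late cumulus with early cumulus and with early mural cells for number 1 (0.203 and 0.218). Such correlations cannot tell whether some numbers share an origin. With the number as a replicate block, late against early cumulus gave 6231 genes and 3 of the 10, since HAS2 stood at 3.06 (adjusted p = 0.108), and the early cell types gave 1653 genes and 0 of the 10. The block was fitted for these comparisons only, and no other call among the 10 genes changed.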
